A study of Homo sapiens with 16 samples.

Results

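To ask how the antioxidant program of lung cancer cells stood after loss of YEATS2, the RNA-seq read counts of the transcription factor NRF2 (gene NFE2L2), its inhibitor KEAP1 and 7 of their best known target genes were described. These 9 genes were chosen by name, and all 9 were found by symbol among the 12676 genes of the deposited table. The cells were H1299, an established line from a human lung carcinoma of the non-small cell type, and both groups had been infected with pLKO lentivirus. Infection ran for 48 h with polybrene at 8 µg/ml, and by the labels puromycin at 2 µg/ml was then given for 4 to 7 days. The paper's methods give a shorter range of days for this selection. The control (shCtrl) group carried a non-targeting shRNA and the shYEATS2 group an shRNA against YEATS2, with 2 libraries in each, so both were selected populations of cells that carry the virus and puromycin resistance. The labels do not name the shRNA. The paper states that its duplicate RNA-seq used the YEATS2 shRNA with efficient knockdown, and it also reports RNA-seq with another, partly effective shRNA. No other YEATS2 shRNA was compared here, so effects of YEATS2 loss and of the shRNA itself cannot be told apart. The study calls its replicates biological, but the labels do not say whether they came from separate infections. The p-values therefore measure only the spread between these libraries.

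NRF2 is a basic leucine zipper factor of the cap'n'collar family that binds DNA with a small MAF protein. In unstressed cells KEAP1 holds NRF2 and presents it to a CUL3 ubiquitin ligase, and oxidants or electrophiles that modify cysteines of KEAP1 let NRF2 escape degradation, enter the nucleus and bind antioxidant response elements. NRF2 is therefore controlled mainly as a protein, which RNA-seq does not measure. In lung cancer the pathway is well known for mutations of KEAP1 and NFE2L2 that keep it switched on.

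The antioxidant response element has the core TGACNNNGC, where N is any base. It was searched on both strands from 1000 bases before to 100 bases after the start of the canonical transcript (hg19/GRCh37). At least 1 match was found in 4 of the 9 genes and in 36.9% of the 12392 genes of the table with such a window, so a match to this short core is common. The matches are shown because NRF2 is defined by this element; capitals mark the core, and each is written on the strand where it reads TGACNNNGC. Distances are those of the core base farthest upstream of the start in the direction of the gene, which is the last base of the core as written where the element is on the strand opposite to the gene (GCLC, GCLM and the TXNRD1 match nearest the start, whose core reaches the start itself). The form with TCA in the middle, found in NQO1, also contains the AP-1 site TGACTCA.

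GCLM, core edge 34 before the start (chr1:94375003-94375029, plus strand): ggaagacaaTGACTAAGCagaaatcgt
NQO1, core edge 455 before the start (chr16:69760901-69760927, minus strand): cagtcacagTGACTCAGCagaatctga
GCLC, core edge 870 before the start (chr6:53410752-53410778, plus strand): aatatgtgtTGACAGAGCaatgacctg
TXNRD1, core edge 99 before the start (chr12:104609449-104609475, plus strand): cacgggctaTGACTTCGCtgttgtcac
TXNRD1, core edge 8 before the start (chr12:104609540-104609566, minus strand): tgtgggaacTGACGGAGCcgaaggacg

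The other 5 genes have no match in this window, which says only that these letters are not there. Among 26 further NRF2 target genes of the table, described later, 16 have a match, against 36.9% of all genes with such a window. These genes were listed because they are known as NRF2 targets, so this count is not a result of the RNA-seq data.

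The libraries held 34718921 to 39417787 counted reads. YEATS2 fell as its label says, from 4482 and 4104 to 665 and 673 scaled reads (log2 fold change -2.68, FDR 0.000583). Scaled reads are counts divided by the TMM library size and multiplied by its mean over the 4 libraries, and the FDR is that of edgeR's quasi-likelihood test over all genes by the Benjamini-Hochberg method, with calls at an FDR under 0.01. KRT8, KRT18 and VIM were listed with group means of 10439 to 112887 scaled reads, whereas EPCAM, KRT19 and 7 markers of leukocytes, endothelium and fibroblasts were not among the genes analysed here. Among all genes 12.9% were called higher and 12.5% lower in YEATS2 KD cells, 25.3% in all, and the median log2 fold change was near 0 with TMM scaling but 0.12 with total counts, so every change is stated relative to the TMM scale.

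At the mRNA level 2 of the 9 genes passed the test in YEATS2 KD cells, and the directions of the 9 were mixed. Of the 9 genes, NFE2L2 and SLC7A11 were called higher, none was called lower and 7 were not called, against 12.9% higher and 12.5% lower among all genes. At an unadjusted p under 0.05, 5 of the 9 were higher and 1 was lower, against 28.7% and 27.8% of all genes at that p, and DESeq2, exactTest and limma-trend also called none lower. The median log2 fold change of the 9 was 0.33, with a range from -0.36 in GCLM to 1.44 in SLC7A11. In 6 genes both knockdown libraries lay above both controls and in 1 gene below both, whereas among all genes these arrangements took up 39.7% and 39.8%. In bulk RNA, a change in the share of cells that express a gene and a change in RNA per cell cannot be told apart.

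**Figure D1:**
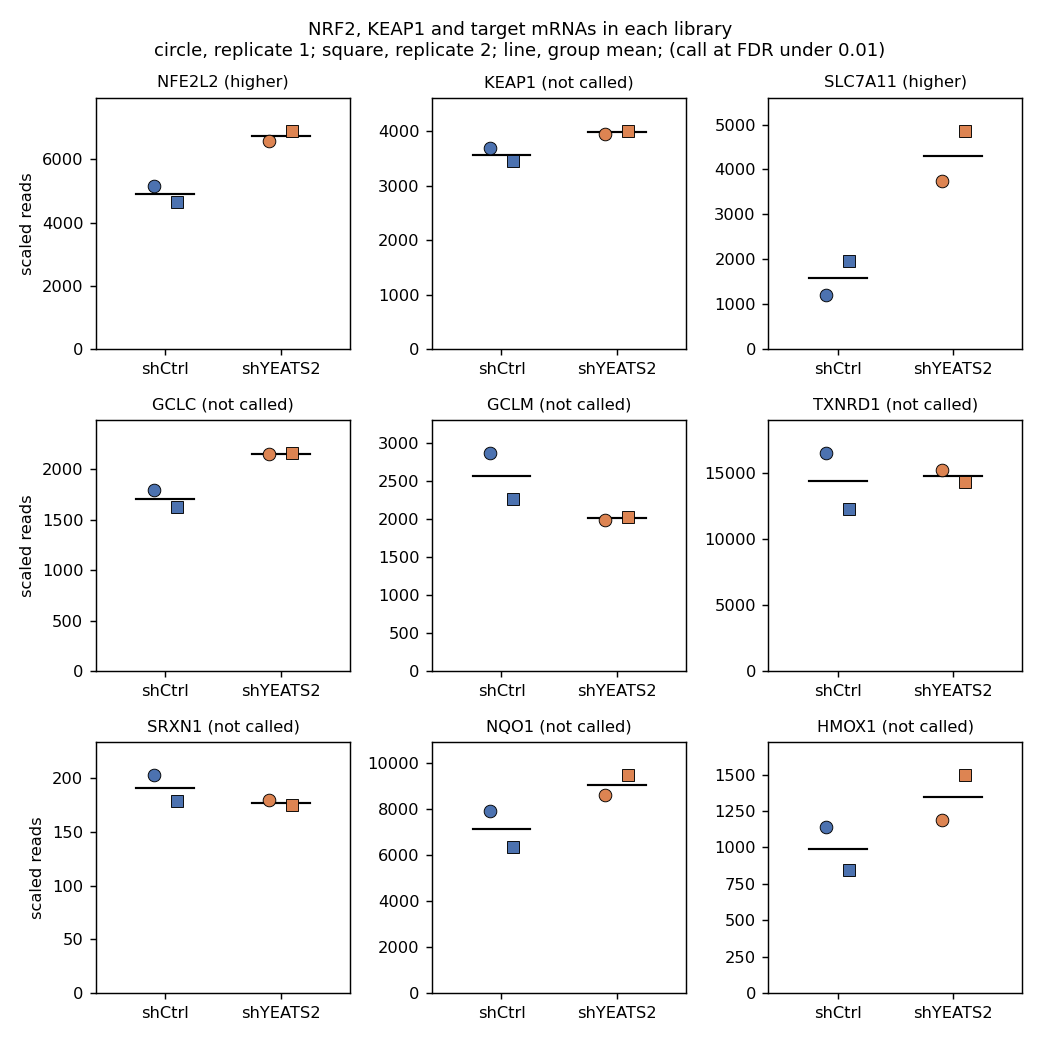
Scaled reads (y axes, from 0, a separate scale for each gene) of the 9 genes in the 2 shCtrl (blue) and 2 shYEATS2 (orange) libraries; circles are replicate 1, squares replicate 2 and lines group means. SLC7A11 shows the widest gap between groups, GCLC and GCLM move apart, and the groups overlap in TXNRD1 and SRXN1.

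The pathway's own regulators were examined first. NFE2L2 encodes NRF2 itself and lies on chromosome 2 from 178083395 to 178257484 (GRCh37). It had 5161 and 4657 scaled reads in the control libraries and 6586 and 6896 in the knockdown libraries. Both knockdown libraries lay above both controls, and the gap between groups was larger than the spread within either. NFE2L2 rose 1.37-fold (log2 fold change 0.46, standard error 0.10, FDR 0.00994 by the quasi-likelihood test), just inside the threshold. Of the 4 fits that leave out a library, 3 lost this call, with FDR values of 0.0342 without shCtrl replicate 1, 0.0919 without shCtrl replicate 2 and 0.0238 without shYEATS2 replicate 2, and the log2 fold change ranged from 0.39 to 0.53.

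KEAP1, the substrate adaptor that presents NRF2 for ubiquitination, lies on chromosome 19 from 10596801 to 10614234. Its scaled reads were 3697 and 3454 in control and 3961 and 4010 in YEATS2 KD cells. The knockdown libraries were again the higher pair, by a small margin. The log2 fold change was 0.16 with a 95% interval from -0.06 to 0.38 (FDR 0.199, quasi-likelihood test), so a modest change of KEAP1 in the upward direction cannot be told from none at this spread. The ratio of NFE2L2 to KEAP1 reads within a library, which does not depend on scaling, was 1.40 and 1.35 in control and 1.66 and 1.72 in YEATS2 KD cells. The exact permutation test of this difference gave p = 0.333, the smallest value that 2 libraries against 2 allow.

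Glutathione synthesis gave the widest split. SLC7A11 is the cystine-glutamate exchanger (xCT), which brings in the cystine from which glutathione is made, and it is located on chromosome 4 from 139085251 to 139163503. It had 1215 and 1966 scaled reads in the control libraries and 3747 and 4857 in the knockdown libraries. Every knockdown value was well above every control value, although the control libraries themselves differed 1.62-fold. SLC7A11 rose 2.71-fold (log2 fold change 1.44, standard error 0.23, FDR 0.00396, quasi-likelihood test), more than 96.2% of all genes by absolute change, and it was called in all 11 other settings and in all 4 fits that leave out a library.

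GCLC and GCLM encode the catalytic and the modifier subunit of glutamate-cysteine ligase, the rate-limiting enzyme of glutathione synthesis. GCLC (chromosome 6, 53362139 to 53481768) had 1795 and 1627 scaled reads in control and 2150 and 2164 in YEATS2 KD cells. GCLM (chromosome 1, 94350755 to 94375012) had 2876 and 2272 in control and 1993 and 2030 in YEATS2 KD cells. The groups did not overlap in either gene, but the directions were opposite. Neither was called, with a log2 fold change of 0.33 for GCLC (95% interval 0.10 to 0.57, FDR 0.0282) and -0.36 for GCLM (95% interval -0.66 to -0.05, FDR 0.0572) in the quasi-likelihood test. Without shCtrl replicate 1 the log2 fold change of GCLM was -0.18 (FDR 0.394). GCLC passed the threshold with total counts as library sizes (log2 fold change 0.45, FDR 0.00806).

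Because both subunits are counted in the same library, their ratio is free of scaling. It was 0.624 and 0.716 reads of GCLC per read of GCLM in the control libraries and 1.08 and 1.07 in the knockdown libraries. The knockdown ratios lay close together and above both controls, a log2 difference of 0.68 (exact permutation test, p = 0.333, the smallest possible here). The ratio of SLC7A11 to SLC3A2, the heavy chain that carries xCT to the cell surface, went from 0.156 and 0.211 to 0.330 and 0.382 in the same way, with the same p. SLC3A2 itself had a log2 fold change of 0.49 and was not called (FDR 0.0163, quasi-likelihood test); it was named as the partner of SLC7A11, outside the rule for named genes.

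The thioredoxin arm showed no call. TXNRD1, the cytosolic thioredoxin reductase, lies on chromosome 12 from 104609557 to 104744085 and had 16557 and 12295 scaled reads in control and 15246 and 14335 in YEATS2 KD cells. Both knockdown values fell between the controls, and the log2 fold change of 0.04 had a 95% interval from -0.32 to 0.39. Its sign turned without shCtrl replicate 2 (-0.16), so no direction can be given. SRXN1, sulfiredoxin, which repairs over-oxidised peroxiredoxins, is on chromosome 20 from 627259 to 633844. It had 203 and 179 scaled reads in control and 180 and 175 in YEATS2 KD cells, with a log2 fold change of -0.11 (FDR 0.626, quasi-likelihood test) that became 0.01 with total counts.

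A readthrough gene annotated on the same strand covers 90.7% of the canonical SRXN1 exons. HTSeq by default drops reads that fall on overlapping genes, and the annotation the authors used is not named, so the level of SRXN1 is uncertain. NQO1, SLC7A11, GCLC and NFE2L2 share 22.8%, 8.97%, 6.66% and 7.77% of their canonical exons with antisense transcripts, whose reads cannot be told apart from theirs because the TruSeq kit named in the labels does not mark strand.

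NQO1 and HMOX1, the classical detoxification targets, had higher means in YEATS2 KD cells but were not called. NQO1 is a quinone reductase encoded on chromosome 16 from 69740899 to 69760571. Its scaled reads were 7918 and 6341 in control and 8614 and 9501 in YEATS2 KD cells. HMOX1, the heme oxygenase that opens the heme ring, is on chromosome 22 from 35776354 to 35790207 and had 1137 and 847 in control and 1190 and 1499 in YEATS2 KD cells. In both genes the knockdown libraries were above the controls, but the distance from the higher control to the lower knockdown library was less than the spread within the control group. The log2 fold changes were 0.35 for NQO1 (FDR 0.0639) and 0.44 for HMOX1 (FDR 0.0770) in the quasi-likelihood test. Without shCtrl replicate 2 they were 0.20 and 0.24, and both genes passed the threshold with exactTest on total counts (FDR 0.00378 and 0.00834).

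**Figure D2:**
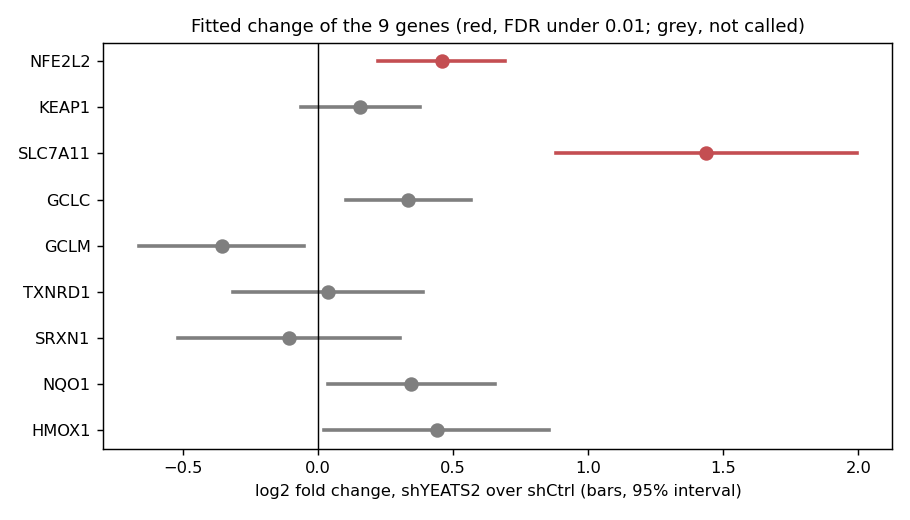
Log2 fold change (x axis, shYEATS2 over shCtrl) of the 9 genes, with 95% intervals from the quasi-likelihood fit; red marks an FDR under 0.01 and grey no call. SLC7A11 at 1.44 stands apart from the other 8, which lie between -0.36 and 0.46.

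Levels were compared between genes as RPKM, reads scaled by the length of the canonical transcript in kilobases and by library size. In control cells TXNRD1 was the most abundant at 103 ± 21.4 (SD, n = 2), followed by NQO1 at 77.6 ± 12.1, NFE2L2 at 55.1 ± 4.00 and KEAP1 at 38.3 ± 1.84. HMOX1 (17.5 ± 3.62), GCLM (14.5 ± 2.40) and GCLC (12.4 ± 0.859) formed the middle, and SLC7A11 (4.53 ± 1.51) and SRXN1 (2.08 ± 0.187) were lowest. The control libraries of HMOX1 and GCLM overlapped, as did those of GCLM and GCLC, so the order of these neighbours does not exceed their spread. In YEATS2 KD cells the level of SLC7A11 was 12.2 ± 2.24, which overlapped that of GCLM at 11.3 ± 0.148, and NQO1 (98.6 ± 6.83) overlapped TXNRD1 (105 ± 4.58). GCLC, at 15.6 ± 0.0741, was then above GCLM, whereas in control cells the libraries of these genes overlapped. These levels rest on transcript lengths of a GENCODE annotation, which may not be the one that was counted.

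The wider set of NRF2 targets was mixed in direction. Of 34 further target genes listed for this work, 26 were in the table, of which 8 were called higher (30.8%, against 12.9% of all genes), 2 lower (7.69%, against 12.5%) and 16 were not called. Their median log2 fold change was 0.23. The listed targets without a row were ABCB6, AKR1B10, AKR1C1, AKR1C2, AKR1C3, ALDH3A1, CYP4F11 and GPX2. All deposited genes have at least 101 reads in some library, and why these targets are absent was not examined. The shares therefore describe only the part of the list that was in the table. The largest rises were in ABCC3, a multidrug and glutathione-conjugate exporter (log2 fold change 2.24), and SQSTM1 (2.06). SQSTM1 encodes p62, a cargo receptor of autophagy that also binds KEAP1, and it had 13110 and 10944 scaled reads in control and 43187 and 57434 in YEATS2 KD cells. OSGIN1, an oxidative stress-induced growth inhibitor, rose by 1.48 and PIR, pirin, by 1.21 on the log2 scale. FDR values of these 4 were at most 0.00326 (quasi-likelihood test). The 2 genes called lower were CBR1, a carbonyl reductase (-0.71, FDR 0.00282), and TXN, thioredoxin itself (-0.50, FDR 0.00620, same test). TXN is the substrate of the reductase made by TXNRD1, and the reads of TXNRD1 per read of TXN were 1.84 and 1.49 in control and 2.48 and 2.37 in YEATS2 KD cells (exact permutation test, p = 0.333). The number of these targets called lower was 0 without shCtrl replicate 1, 1 without shCtrl replicate 2 and 1 without shYEATS2 replicate 2.

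Among the enzymes of NADPH supply, which glutathione and thioredoxin reductases draw on, PGD, TKT and TALDO1 were not called, with log2 fold changes from -0.13 to 0.16, whereas malic enzyme ME1 rose by 0.86 (FDR 0.00310, quasi-likelihood test). These 4, and GSR, were singled out after their values were seen. GSR, glutathione reductase, had 2958 and 2609 scaled reads in control and 2381 and 2880 in YEATS2 KD cells, and the groups overlapped. Counts of ferritin genes and of the TRIM16 pair in this list can be shared with near-identical copies.

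**Figure D3:**
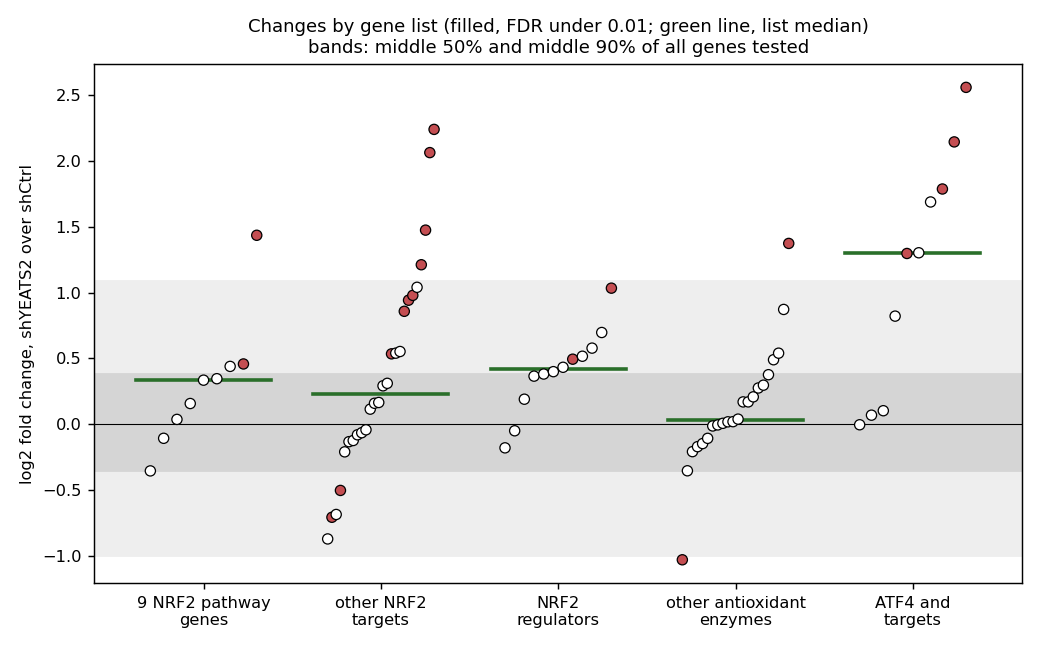
Log2 fold change (y axis, shYEATS2 over shCtrl) of every gene in 5 lists, sorted within each list; red points passed an FDR of 0.01, green lines are list medians, and the grey bands hold the middle 50% (-0.35 to 0.38, dark) and middle 90% (light) of all genes tested. Called NRF2 targets run in both directions, and the ATF4 list has the highest median, 1.30.

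Factors that act on or beside NRF2 were examined next. Of 12 such genes, all in the table, 2 were called higher (16.7%) and none lower, against 12.9% and 12.5% among all genes. At an unadjusted p under 0.05 in the quasi-likelihood test 7 were higher and none lower (28.7% and 27.8% of all genes), and DESeq2, exactTest and limma-trend called none lower. In 10 of the 12 both knockdown libraries lay above both controls, as in 39.7% of all genes, and the median log2 fold change was 0.42. NFE2L1 encodes NRF1, a relative of NRF2 that is best known for inducing proteasome genes. It had 15239 and 13533 scaled reads in control and 27842 and 31071 in YEATS2 KD cells, a rise of 1.03 on the log2 scale (FDR 0.00129). BACH1, the repressor that competes with NRF2 for antioxidant response elements and is best known for holding down HMOX1, rose by 0.49 (FDR 0.00713, quasi-likelihood test). Thus the mRNA of the activator NFE2L2 and that of the repressor BACH1 were called higher by similar amounts, 0.46 and 0.49. The number called higher in this list was 5 with total counts, 5 without shYEATS2 replicate 1 and 1 without either shCtrl replicate 2 or shYEATS2 replicate 2.

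Other antioxidant genes, enzymes apart from SLC3A2, were also listed. The split from the list of NRF2 targets was made for this work, and some of these genes may be NRF2 targets too. Of 24, 22 were in the table, with 1 call in each direction (4.55% each, against 12.9% and 12.5% of all genes) and a median log2 fold change of 0.03. The number called higher depended on the setting: it was 5 with total counts and with exactTest on the TMM scale, 7 at an FDR under 0.05, where 24.4% of all genes were called higher, 2 without shYEATS2 replicate 1 and 0 without any other single library. MSRB2, a mitochondrial methionine sulfoxide reductase, rose by 1.37 (FDR 0.00958) from 30.1 and 40.1 to 79.6 and 102.6 scaled reads. Few reads stand behind this call, which limma-trend did not make. Every deposited gene has at least 101 reads in some library, and MSRB2 reached that only in shYEATS2 replicate 2, with 116. It was thus listed only through the group where it is high, and its call is no support for a rise. PRDX4, the peroxiredoxin of the endoplasmic reticulum, fell by 1.03 on the log2 scale (FDR 0.00259, quasi-likelihood test) from 5423 and 5443 to 3051 and 2265 scaled reads.

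SLC7A11 is also a known target of ATF4, the factor of the integrated stress response, so ATF4 and 9 of its known targets were set beside it. Of these 10 genes 4 were called higher and none lower, against 12.9% and 12.5% of all genes. At an unadjusted p under 0.05 in the quasi-likelihood test 7 were higher and none lower (28.7% and 27.8% of all genes), and DESeq2, exactTest and limma-trend called none lower. The number called higher was 7 without shCtrl replicate 2, with exactTest and with a replicate block. TRIB3 (log2 fold change 2.56, FDR 0.00181), DDIT3 (2.15, FDR 0.00402), SESN2 (1.79, FDR 0.00363) and ATF3 (1.30, FDR 0.00542) were those called, all stress-induced genes. ATF4 mRNA itself had a log2 fold change of 0.10, and PHGDH and PSAT1, enzymes of serine synthesis, had -0.00491 and 0.07. The other members, CHAC1 (1.69, FDR 0.0111), DDIT4 (1.30, FDR 0.0383) and ASNS (0.82, FDR 0.0187), were not called in the quasi-likelihood test. These 6 were named after their values were seen, to account for the whole list.

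The 2 control libraries were also compared with each other, which does not involve YEATS2 and, with 1 library on each side, has no test. In shCtrl replicate 2, 8 of the 9 genes had fewer scaled reads than in replicate 1, as had 49.9% of all genes, and SLC7A11 had 1.62-fold more. TXNRD1, HMOX1 and GCLM were more than 20% lower in replicate 2, with ratios of 0.743, 0.745 and 0.790. A drop of that size was seen in 4.05% of all genes. NQO1, with a ratio of 0.801, lay just short of it. KEAP1, GCLC, NFE2L2 and SRXN1 differed less, with ratios of 0.934, 0.907, 0.902 and 0.880. All 10 genes of the ATF4 list were over 25% higher in that library, as were 8.23% of all genes. The knockdown pair showed a like difference. In shYEATS2 replicate 2, 7 of these 10 genes were over 25% higher than in replicate 1, against 9.68% of all genes. None of the 10 was lower there, against 50.6% of all genes. In the knockdown group the 9 genes differed less, with log2 ratios of replicate 2 to replicate 1 from -0.09 for TXNRD1 to 0.37 for SLC7A11. HMOX1 and SLC7A11, 2 of the 9, were over 25% higher in shYEATS2 replicate 2, against 9.68% of all genes. None of the 9 was over 20% lower there, whereas 10.6% of all genes were, a larger share than in the control pair. What differed between the replicates of either group is not given by the labels, and its part in the results was not tested.

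**Figure D4:**
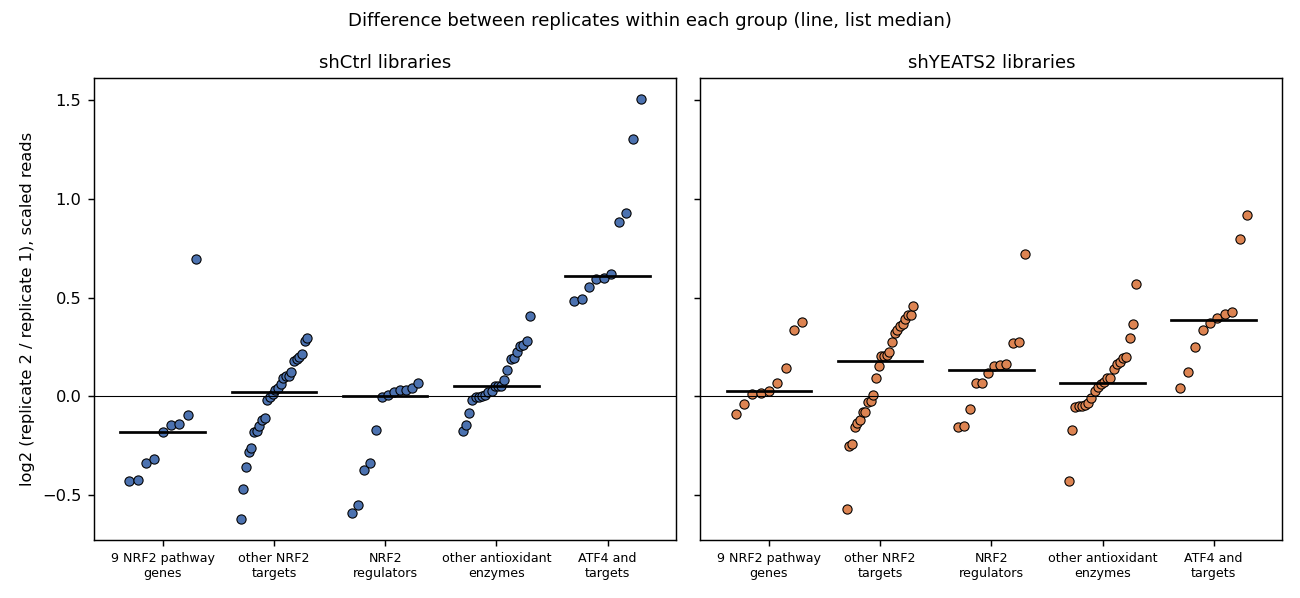
Log2 ratio of scaled reads in replicate 2 to replicate 1 (y axis) for every gene of the 5 lists, in the shCtrl (left) and shYEATS2 (right) groups; lines are list medians. In the control group 8 of the 9 NRF2 pathway genes lie below 0 and SLC7A11 at 0.69, beside the ATF4 list, whose median is 0.61. In the shYEATS2 group SLC7A11 lies at 0.37 and the ATF4 median is 0.38.

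The genes whose pattern over the 4 libraries was most like that of SLC7A11, by Euclidean distance of centred log2 CPM among 12122 genes with a mean of at least 100 scaled reads, were ORAI3 (distance 0.05), CLIP3 (0.15) and RP11-946L20.2 (0.21). ORAI3, a calcium channel subunit, had 142 and 245 scaled reads in control and 509 and 685 in YEATS2 KD cells, the same order of libraries as SLC7A11. With 4 libraries, likeness of this kind describes these samples only.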

How the data were processed

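RNA-seq was performed on 4 H1299 libraries, 2 shCtrl and 2 shYEATS2, grouped by their titles; the 12 ChIP-seq samples of the series were not used here. The study's methods name the RNA-Seq unified mapper and hg19, whereas the processing notes name TopHat2 2.0.10 and Bowtie2 2.1.0 without a role; the authors counted reads per gene with HTSeq 0.6.1p1. The deposited read counts are whole numbers without normalization, for genes with at least 101 reads in some library. Annotation and strand setting beyond default parameters are not given in the sources used here. The table's log2 fold changes, p-values and FDR values are the authors' own comparison and were not used.

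A minimum of 10 reads in any 2 libraries kept all 12676 genes, which were fitted in edgeR 4.0.16 (R 4.3.3) with TMM scaling and the quasi-likelihood test without a replicate block, and adjusted over all genes. The methods used exactTest, which is an alternative here, with DESeq2 1.42.0, limma-trend (limma 3.58.1; pseudocount 1 CPM), other scalings and filters, the block, an FDR of 0.05 and each library left out. Standard errors are the absolute log2 fold change over the square root of F. Intervals and tests cover the spread between 2 libraries a group. The chi-square over genes was 17.9 and 38.0 times the number of genes in the control and knockdown pairs, so replicates differed beyond sampling noise. The script was tested on simulated data.

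The 9 genes and all lists were chosen with earlier results of these data known, and lists are described by counts without a list test. Named genes are the 9, YEATS2, up to 4 called higher and 4 called lower with the largest change in each other list, and the 3 nearest patterns to the most changed of the 9; the text says where it names others. Positions, transcript lengths and sequence come from GRCh37 and GENCODE v44 lifted to it.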

Additional observations from a re-analysis of the deposited data

How the results depend on the processing

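With 2 libraries a group, every fit rests on few residual degrees of freedom, and a fit that leaves out a library assumes that the remaining single library varies like the other group. SLC7A11 kept its direction and call in all 15 alternatives and NFE2L2 in 12 of them. YEATS2 stayed called with log2 fold changes from -2.74 to -2.56. GCLM, GCLC, KEAP1, NQO1 and HMOX1 kept their direction in all 15. TXNRD1, from -0.16 to 0.26 with a library left out, reversed to -0.16 without shCtrl replicate 2 and to -0.00834 without shYEATS2 replicate 1, and SRXN1 reversed to 0.0121 with exactTest on total counts and 0.0123 with total counts in the quasi-likelihood test. The cause of these changes was not tested.

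Genes called higher and lower, 1630 and 1581 as reported, were 2596 and 2497 with exactTest on the TMM scale, 2742 and 2715 with the replicate block and 3093 and 3011 at an FDR under 0.05; exactTest on total counts called 3464 higher and 1778 lower. The higher share of all calls was 50.8% with TMM and 67.0% with total counts in the quasi-likelihood test (2363 and 1166 calls). Of the 9 genes, 5 were called higher with exactTest on total counts. The other NRF2 targets called lower numbered 1 with total counts, 4 with the block and 4 at an FDR under 0.05. The NRF2 regulators called higher numbered 4 with DESeq2, 5 with exactTest on TMM, 7 with exactTest on total counts, 5 with total counts, 5 with the block and 6 at an FDR under 0.05. The antioxidant enzymes called higher numbered 3, 5, 7, 5, 5 and 7 in the same order, and 0 with limma-trend and with a mean count of at least 100, where MSRB2 was not tested; those called lower numbered 2 with DESeq2, exactTest on TMM, the block and an FDR under 0.05. The ATF4 list had 7 called higher with exactTest on either scale, with the block and at an FDR under 0.05.

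With each library left out, genes called ranged from 775 to 1971 higher and from 850 to 2024 lower, fewest without shCtrl replicate 1. The ranges were 1 to 2 for the 9 genes called higher, 0 to 2 for other NRF2 targets called lower, 1 to 5 for regulators, 0 to 2 for antioxidant enzymes and 3 to 7 for the ATF4 list called higher. The deviations of same-numbered libraries from their group means correlated at 0.40 over 12123 genes, but with 2 pairs the numbers show no pairing by design. The replicate block left the calls of the 9 genes at NFE2L2 and SLC7A11, with 2742 and 2715 genes called in all.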
